A study of Mus musculus with 15 samples.

Results

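The genes of cholesterol and fatty acid synthesis were followed in mouse P14 CD8+ T cells through antigen receptor activation, inhibition of PI3K p110δ and withdrawal of IL-2. The set was a fixed list of 40 gene symbols that was looked up in the symbol column of both deposited expression tables. In the table of naïve and activated cells 38 of the 40 symbols were found among 11262 rows, and in the table of cytotoxic T lymphocytes (CTL) 38 were found among 11211 rows. Both tables held 37 of them. Me1 was listed for CTL only, Acsl6 for naïve and activated cells only, and methylsterol monooxygenase stood under its older symbol Sc4mol, so that Msmo1 was found in neither table. The 39 genes found fell into 3 roles, namely 19 genes of the sterol branch (18 enzymes and the sterol carrier Stard4), 4 regulators of the sterol response and 16 genes that make, lengthen, desaturate or activate fatty acids, of which each table held 15.

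Cells build cholesterol from acetyl-CoA through mevalonate, farnesyl diphosphate, squalene and lanosterol, and they build fatty acids from the same acetyl-CoA through malonyl-CoA. Transcription of both branches is driven by the SREBP transcription factors, encoded by Srebf1 and Srebf2, which are held in the endoplasmic reticulum together with the escort protein SCAP and are released for processing when membrane sterol is low. INSIG1 retains that complex and is itself the product of an SREBP target gene. Activated T cells grow and divide quickly and need new membrane, and SREBP activity in T cells is known to respond to antigen receptor, cytokine and PI3K signals.

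All cells carried the LCMV-P14 TCR transgene, an antigen receptor specific for the viral peptide gp33-41. Naïve cells were taken ex vivo from lymph nodes of female mice aged 9 to 13 weeks and sorted for live CD8+ cells with high CD62L and low CD44. TCR activated cells were cultured with gp33-41 (100 ng/ml) for 24 h. IL-2 was present at 20 ng/ml, and IL-12 at 2 ng/ml. TCR activated cells with PI3Kdi also received 10 µM IC87114, an inhibitor of p110δ. Both activated groups were sorted as live CD8+ cells. Every biological replicate was a pool of cells from 3 mice that was divided between these 3 conditions, and the peptide was added to whole lymph node suspensions, so that other lymph node cells were present during activation. CTL were made from P14 transgenic mice by activation for 48 h and a further 4 days in 20 ng/ml IL-2, then washed on day 6 and kept for 24 h either in 20 ng/ml IL-2 or without IL-2. Each of the 5 groups had 3 libraries. The activated cells were also cultured in IL-2, so both the TCR activated group and its PI3Kdi counterpart carried that cytokine.

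Levels were FPKM, a read count scaled for library size and divided by the exon length of the gene, so levels of different genes could be set side by side. The libraries of a group agreed, with a lowest Pearson r across rows of 0.983 to 0.990 within groups. Read totals per library are not given in the sources used here, so the depth is unknown. The label of CD8+ T cells was met: Cd8a, Cd8b1, Cd3d, Cd3e and Cd3g were present in every library, with a summed level from 637 FPKM in TCR activated cells to 3482 FPKM in naïve cells. Of the B cell markers, Ms4a1 and Cd79a stayed at or below 2.76 FPKM in naïve and activated cells, and Cd79b went from 19.6, 21.8 and 19.6 FPKM in naïve cells to 2.99, 2.58 and 3.48 FPKM after activation. In CTL Cd79b was the B cell marker used. The samples were bulk RNA, in which fewer cells with a transcript and less of it per cell cannot be told apart. Replicate libraries came from separate pools in the naïve and activated cells, whereas for CTL the labels give replicate numbers and do not say whether the cultures came from separate mice.

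The start regions of the genes are shown first, because SREBPs act through short promoter motifs. RefSeq promoter sequences (build GRCm38.p6, the mm10 genome), running from 250 bases before to 50 bases after each start site, were found for 32 of the listed genes, Sc4mol being matched as Msmo1. No sequence was found for Fdft1, Scd2, Fads1, Fdps, Scd1, Sqle and Stard4. Each window was searched on both strands for the sterol regulatory element written as TCACNCCAC or TCACNCGAC, for the CCAAT box (CCAAT, bound by NF-Y, a known partner of SREBP), for the E-box CACGTG and for the GC box GGGCGG. The windows of 14 of 15 sterol genes and 9 of 13 fatty acid genes held a CCAAT box, beside 43.6% of the 8112 genes of the naïve and activated table with a RefSeq window and 41.1% of all 27025 genes. At least 2 CCAAT boxes were in 9 of the 15 sterol genes, against 17.3% of the genes of that table. A GC box was in 14 of 15 sterol genes and 8 of 13 fatty acid genes, beside 70.2% of the genes of the table. An E-box was in 3 sterol genes and 1 fatty acid gene, beside 12.4%. Either spelling of the sterol regulatory element was in 1 sterol gene, Hmgcs1, and in no fatty acid gene, beside 1.96% of the genes of the table. A gene with several start sites counted once if any of its windows held the motif, no overlap between motifs was removed, and a match is a run of letters and not a measured binding site.

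The 250 bases before the start site are printed for 8 genes on which the results below turn, 5' to 3' on the strand of the gene, with CCAAT boxes (ATTGG where they lie on the other strand) and the sterol regulatory element in capitals. They stand for the sterol branch (Hmgcs1, Idi1, Lss and Cyp51), its feedback regulator Insig1, fatty acid synthase Fasn, the desaturase Fads2 and Acss2, whose calls ran against those of the other fatty acid genes. On the plus strand lie Hmgcs1 at chr13:119690101-119690350, Idi1 at chr13:8885356-8885605, Lss at chr10:76531355-76531604, Insig1 at chr5:28071162-28071411 and Acss2 at chr2:155517793-155518042. On the minus strand lie Cyp51 at chr5:4104698-4104947, Fasn at chr11:120824548-120824797 and Fads2 at chr19:10101504-10101753. In these stretches Hmgcs1 and Fasn had 3 CCAAT boxes each, Idi1 had 2, and Lss, Cyp51, Insig1 and Acss2 had 1. The pair nearest the start site of Fasn overlap as a palindrome. The stretch of Fads2 held none of these letters, which says nothing about sites elsewhere.
Hmgcs1: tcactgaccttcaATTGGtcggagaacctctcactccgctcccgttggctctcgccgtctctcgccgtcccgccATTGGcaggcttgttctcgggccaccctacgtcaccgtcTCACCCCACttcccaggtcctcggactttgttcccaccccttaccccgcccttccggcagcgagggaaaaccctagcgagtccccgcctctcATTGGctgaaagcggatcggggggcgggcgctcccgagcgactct
Idi1: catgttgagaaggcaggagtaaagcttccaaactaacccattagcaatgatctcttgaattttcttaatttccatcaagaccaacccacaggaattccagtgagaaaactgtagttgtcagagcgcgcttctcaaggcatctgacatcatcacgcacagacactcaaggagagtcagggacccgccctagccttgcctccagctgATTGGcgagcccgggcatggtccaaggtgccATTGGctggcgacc
Lss: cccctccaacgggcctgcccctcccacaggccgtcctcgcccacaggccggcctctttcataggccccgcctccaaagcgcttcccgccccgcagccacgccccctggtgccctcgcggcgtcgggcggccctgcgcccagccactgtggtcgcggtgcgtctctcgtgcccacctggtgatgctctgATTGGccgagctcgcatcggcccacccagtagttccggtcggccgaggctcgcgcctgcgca
Cyp51: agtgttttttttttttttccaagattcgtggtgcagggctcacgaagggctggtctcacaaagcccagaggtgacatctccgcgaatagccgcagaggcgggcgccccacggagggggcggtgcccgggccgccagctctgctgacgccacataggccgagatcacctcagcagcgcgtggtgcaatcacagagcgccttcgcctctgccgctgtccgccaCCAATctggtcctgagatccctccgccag
Insig1: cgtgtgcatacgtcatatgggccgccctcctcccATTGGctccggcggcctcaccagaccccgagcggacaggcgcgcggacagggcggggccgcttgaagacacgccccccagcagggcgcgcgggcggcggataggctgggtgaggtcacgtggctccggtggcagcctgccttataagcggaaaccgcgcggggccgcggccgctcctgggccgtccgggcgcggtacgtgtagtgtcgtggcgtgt
Fasn: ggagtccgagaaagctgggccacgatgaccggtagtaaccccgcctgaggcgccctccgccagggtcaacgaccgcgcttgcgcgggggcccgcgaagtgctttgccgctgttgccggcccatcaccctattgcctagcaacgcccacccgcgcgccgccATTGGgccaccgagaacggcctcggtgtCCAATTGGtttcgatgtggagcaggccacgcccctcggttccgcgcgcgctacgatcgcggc
Fads2: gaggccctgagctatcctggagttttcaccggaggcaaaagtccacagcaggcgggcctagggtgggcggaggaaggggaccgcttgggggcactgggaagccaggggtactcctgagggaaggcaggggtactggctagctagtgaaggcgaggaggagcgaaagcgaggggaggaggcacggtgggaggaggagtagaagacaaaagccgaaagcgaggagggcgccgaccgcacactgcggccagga
Acss2: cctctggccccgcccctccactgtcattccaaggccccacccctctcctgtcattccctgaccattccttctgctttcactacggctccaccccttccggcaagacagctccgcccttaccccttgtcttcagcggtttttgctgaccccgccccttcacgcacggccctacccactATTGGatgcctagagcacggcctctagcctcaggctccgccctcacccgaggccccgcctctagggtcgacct

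The summed level gives the size of each branch. The 19 sterol genes summed to between 170.4 and 190.4 FPKM in the 3 naïve libraries, 607 to 747 FPKM after TCR activation and 399 to 519 FPKM with PI3Kdi. In CTL they summed to between 739 and 909 FPKM in IL-2 and 216 to 255 FPKM without it. The groups within each table did not overlap. The 15 fatty acid genes of each table summed to 344 to 370 FPKM, 650 to 841 FPKM and 522 to 589 FPKM in the first 3 groups, and to 1030 to 1187 FPKM and 474 to 487 FPKM in CTL with and without IL-2. The regulators differed less, from 132 to 157 FPKM in naïve cells to 185 to 244 FPKM after activation and 150.2 to 171 FPKM with PI3Kdi. Abundant genes weigh most in such sums, so the genes are taken one by one in what follows. The tables were normalised separately, and no test was made between them.

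**Figure D1:**
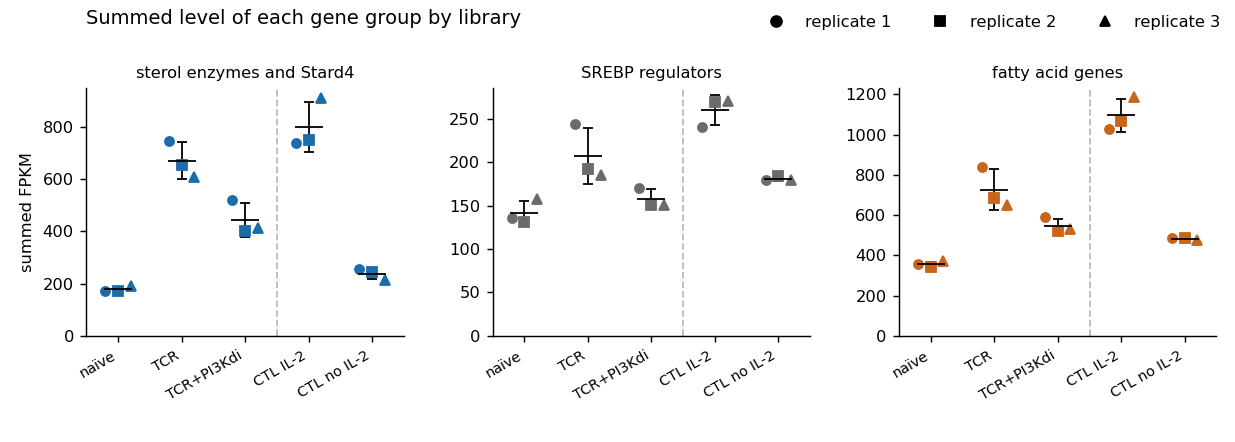
Summed FPKM (vertical axes, from 0) of the sterol genes, the SREBP regulators and the fatty acid genes in each library of the 5 groups, with bars for the mean ± SD (n = 3) and symbols for the replicate number. The dashed line parts the 2 separately normalised tables, and the sterol sum falls from at least 739 FPKM to at most 255 FPKM when IL-2 is withdrawn.

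Both branches were higher after TCR activation. Of 19 sterol genes 14 rose and 1, Tm7sf2, fell between naïve and TCR activated cells, where a change means a Benjamini-Hochberg adjusted p under 0.05 in limma and a fold change over 2 or under 0.5. Of all rows 25.0% rose and 23.7% fell by the same rule. The median log2 fold change, on the scale of log2(FPKM + 0.1) used throughout, was 2.00 for the sterol genes and 0.005 for all rows. The steepest rises in the sterol branch were those of Idi1, which isomerises isopentenyl diphosphate, Cyp51, the lanosterol demethylase, and Sqle, the squalene epoxidase. Idi1 was at 1.59, 1.12 and 1.08 FPKM in the naïve libraries and 16.8, 27.3 and 24.6 FPKM after activation, a 16.7-fold difference (adjusted p = 5.2e-09, limma) that was 3.38 in place of 4.07 on the log2 scale with a pseudocount of 1. Sqle went from 4.51, 4.27 and 6.66 FPKM to 62.3, 54.0 and 48.7 FPKM, a 10.7-fold difference (adjusted p = 6.4e-09, limma). Cyp51 differed 11.2-fold and the farnesyl diphosphate synthase Fdps 6.86-fold. Every activated library was above every naïve library for these 4 genes, beside 40.7% of all rows with that order and 40% with the reverse order. Fdps was the most abundant sterol gene after activation, at 124 ± 18.5 FPKM (SD, n = 3).

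Mvd and some of the late steps differed less. Mvd, Nsdhl, Ebp and Dhcr7, the last of which performs the final reduction to cholesterol, did not pass the fold limit, with log2 fold changes of 0.70 ± 0.19 (SE), 0.82 ± 0.15, 0.30 ± 0.10 and 0.39 ± 0.19. Ebp, a sterol isomerase, was already at 22.6, 21.9 and 23.3 FPKM in naïve cells. Tm7sf2, a sterol reductase, was at 5.16, 4.80 and 4.80 FPKM in naïve cells and 3.04, 2.18 and 2.04 FPKM after activation, so its groups did not overlap and its log2 fold change of -1.01 lay just past the limit. The call was lost with naïve replicate 1 (-0.98), TCR replicate 2 (-0.95) or TCR replicate 3 (-0.91) left out, with a pseudocount of 1 (-0.80) and with median scaling of the libraries (-0.94).

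**Figure D2:**
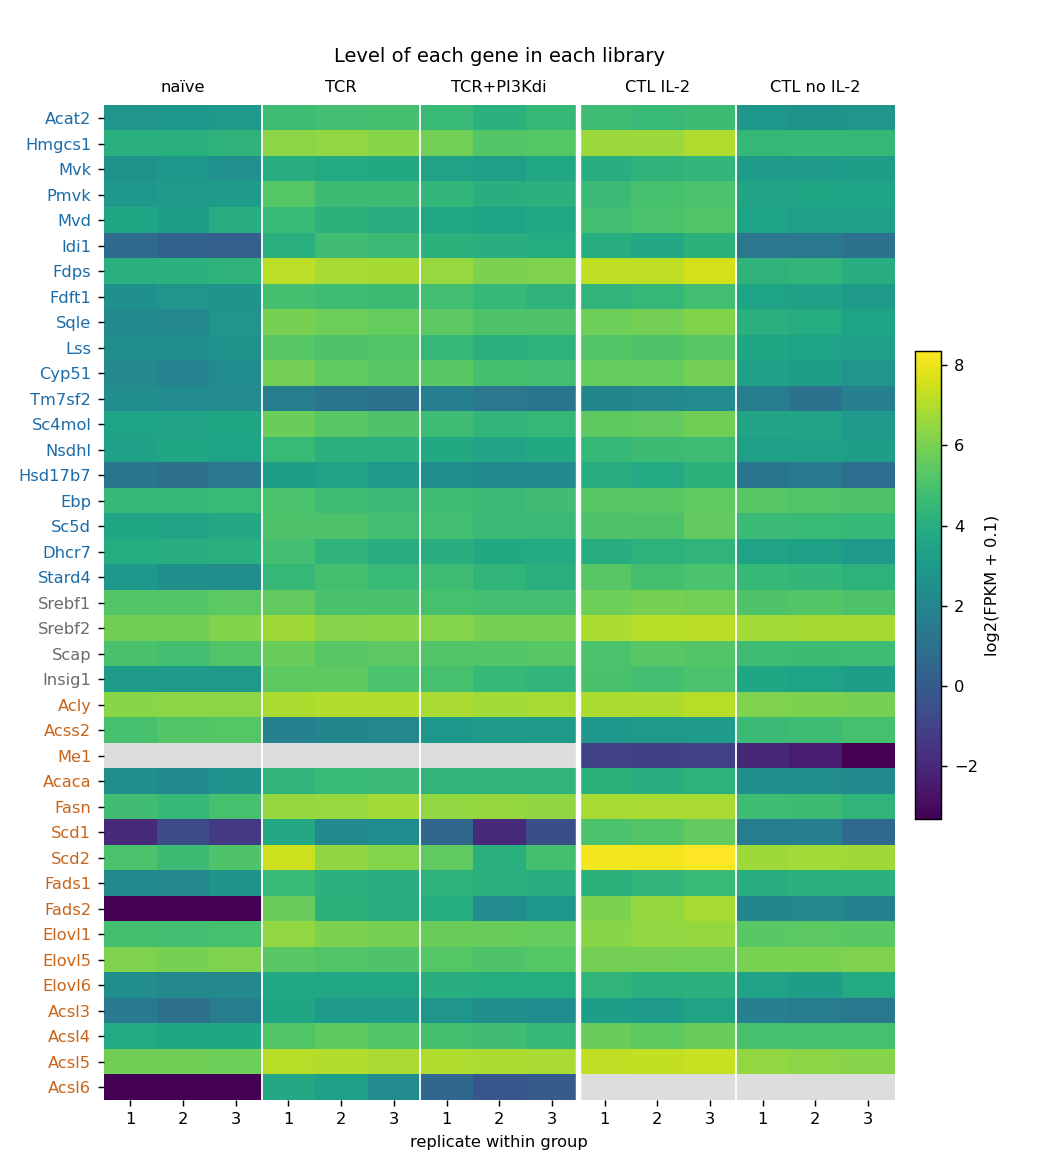
Level of each gene (rows, symbols coloured blue for the sterol branch, grey for regulators and orange for fatty acid genes) in each library (columns, grouped by condition), as log2(FPKM + 0.1). Grey cells mark a gene that the table does not list, the wide white line parts the 2 tables, and the blank cells of Fads2 and Acsl6 in the 3 naïve libraries are drawn at 0 FPKM.

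Of 15 fatty acid genes 12 rose with TCR activation and 1, Acss2, fell, beside 25.0% of all rows that rose and 23.7% that fell. Fads2, a desaturase of polyunsaturated fatty acids, and Acsl6, an acyl-CoA synthetase, had blank cells, read as 0, in all naïve libraries, so no fold is given for them. They reached 50.9, 18.1 and 15.6 FPKM and 13.1, 10.1 and 4.93 FPKM after activation. Scd1, the stearoyl-CoA desaturase that makes oleate, went from 0.16, 0.53 and 0.29 FPKM to 12.9, 4.66 and 5.08 FPKM. Acaca and Fasn, which make malonyl-CoA and palmitate, rose 4.12-fold and 3.6-fold. The citrate lyase Acly was abundant beforehand, at 78.8 ± 0.73 FPKM (SD, n = 3), and its 1.6-fold difference did not pass the fold limit. Acss2, which makes acetyl-CoA from acetate and so stands beside Acly, went the other way. It was at 30.6, 37.1 and 38.1 FPKM in naïve libraries and 3.42, 3.97 and 4.22 FPKM in activated libraries, 8.9-fold lower (adjusted p = 1.3e-09, limma). Elovl5, an elongase of polyunsaturated chains, was also lower in all 3 activated libraries, at a log2 fold change of -0.81 ± 0.09 (SE), within the fold limit.

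Among the regulators only Insig1 passed both limits, with 8.64, 7.98 and 8.23 FPKM before and 44.6, 44.2 and 33.2 FPKM after activation, a 4.82-fold rise (adjusted p = 1.2e-07, limma). That was 1 of 4 genes, beside 25.0% of all rows that rose, so nothing is read from the count. Srebf2, whose product mainly drives the sterol branch, went from 57.5, 57.3 and 70.3 FPKM to 102, 76.1 and 77.8 FPKM. Srebf1 stood at 37.2, 37.7 and 42.4 FPKM and 46.2, 32.2 and 31.5 FPKM, groups that overlapped. Scap had 32.4, 28.6 and 36.4 FPKM and 51.6, 39.5 and 42.9 FPKM. The log2 fold changes of Srebf2 and Scap were 0.46 ± 0.13 and 0.46 ± 0.12 (SE), under the fold limit with adjusted p of 0.0061 and 0.0033 (limma).

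With PI3Kdi the sterol branch was lower by a modest amount across most of its length. In limma 0 of 19 sterol genes passed both limits between TCR activated cells with and without PI3Kdi, while 2.10% of all rows fell and 3.04% rose. At an unadjusted p under 0.05 with no fold limit 15 of the 19 were lower and 0 higher, beside 15.4% of all rows lower and 16.1% higher. At an adjusted p under 0.05 with no limit on the fold, 11 of 19 sterol genes were lower and 0 were higher, beside 8.19% of all rows lower and 9.35% higher. The median log2 fold change was -0.56 for the sterol genes, with 18 of 19 negative, against -0.008 for all rows. All PI3Kdi libraries lay below all TCR libraries for 12 of 19 sterol genes, beside 18.6% of all rows. A fold limit of 1.5 gave 7 sterol genes, all lower. The share of all rows at that limit was not computed. It lies between the 2.10% that fell past 2-fold and the 8.19% lower at any fold. Beside this, the summed CD8 T cell markers lay between 637 and 685 FPKM without and between 811 and 953 FPKM with PI3Kdi. Of the B cell markers, Ms4a1 fell from 0.48, 0.77 and 0.95 FPKM to 0.11, 0.04 and 0.04 FPKM, while Cd79a and Cd79b did not pass the test, at log2 fold changes of -1.03 and 0.12. The part of these markers in the results was not tested.

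The lowest ratios among the sterol genes were those of Lss, which closes the rings to lanosterol, Hsd17b7 and Sc4mol, which act on methylated sterols after it, and Hmgcs1, which condenses acetoacetyl-CoA to HMG-CoA. Lss was at 39.9, 33.6 and 38.0 FPKM in TCR activated cells and 21.9, 17.1 and 18.7 FPKM once PI3Kdi was added, which gave -0.95 ± 0.12 on the log2 scale (SE, adjusted p = 0.0004, limma). Hmgcs1 went from 80.4, 88.1 and 76.6 FPKM to 57.6, 37.4 and 38.6 FPKM, at -0.90 ± 0.15 (adjusted p = 0.0021, limma). Hsd17b7 went from 9.02, 10.4 and 8.57 FPKM to 5.58, 4.57 and 4.65 FPKM. In all 3 genes the PI3Kdi libraries were below the TCR libraries and above the naïve ones. Sc4mol behaved alike, from 53.2, 39.5 and 33.9 FPKM to 26.2, 20.5 and 22.0 FPKM, and Fdps, Pmvk, Mvd, Nsdhl, Sqle, Acat2 and Mvk had log2 fold changes from -0.72 to -0.41 with adjusted p of 0.0056 to 0.048 (limma). Sc5d, Cyp51, Dhcr7, Idi1, Fdft1, Stard4, Ebp and Tm7sf2 did not reach an adjusted p of 0.05, with log2 fold changes from -0.56 for Cyp51 to 0.12 for Tm7sf2.

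The count of 11 depended on the libraries. It was 5 with PI3Kdi replicate 2 left out, 7 with PI3Kdi replicate 3 or TCR replicate 2 left out and 9 without TCR replicate 1. PI3Kdi replicate 2 was the lowest of its group for 12 of the 19 sterol genes. Leaving out PI3Kdi replicate 1, which was the highest of its group for 16 of 19, brought Hmgcs1 (-1.10) and Lss (-1.05) past the 2-fold limit, as leaving out TCR replicate 2 did for Lss (-1.02) and TCR replicate 3 for Sc4mol (-1.01). Whether this spread between pools has a technical part was not tested.

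The regulators had lower levels as well, and in limma 0 of 4 passed both limits, with 2 lower at an unadjusted p under 0.05. By that unadjusted p 15.4% of all rows were lower. Insig1 was at 31.3, 22.8 and 20.4 FPKM with PI3Kdi, below the TCR libraries given above, with a log2 fold change of -0.72 ± 0.16 (SE, adjusted p = 0.011, limma) that stayed within the fold limit. Srebf2 was at 72.5, 62.0 and 61.4 FPKM and Srebf1 at 30.8, 28.2 and 29.1 FPKM. Scap was at 35.9, 38.1 and 39.3 FPKM. All PI3Kdi libraries lay below all TCR libraries for all 4 genes, beside 18.6% of all rows, but the adjusted p for Srebf2, Srebf1 and Scap were 0.068, 0.16 and 0.2 (limma).

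In the fatty acid branch 4 of 15 genes fell with PI3Kdi and 1, Acss2, rose, beside 2.10% of all rows that fell and 3.04% that rose. The 4 were the desaturases Scd1, Scd2 and Fads2 and the acyl-CoA synthetase Acsl6. The genes of chain synthesis did not pass the test. Fasn was at 90.7, 95.1 and 106 FPKM without and 88.2, 90.9 and 86.7 FPKM with PI3Kdi, which differed by -0.13 ± 0.11 on the log2 scale (SE, adjusted p = 0.45, limma). Acaca was at 19.6, 23.9 and 24.5 FPKM and 19.8, 19.9 and 19.7 FPKM, and Acly differed by -0.16 ± 0.07 on the log2 scale (adjusted p = 0.14, limma). These 3 enzymes lead from citrate to palmitate. The groups overlapped for Fasn and Acaca, while all PI3Kdi libraries lay below all TCR libraries for Acly, as they did for 18.6% of all rows.

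Scd1 and Acsl6 differed most, followed by Scd2 and Fads2. Scd1 was at 1.43, 0.16 and 0.60 FPKM with PI3Kdi, 10.5-fold lower than after activation alone (log2 fold change -3.39 ± 0.59, SE). Scd2, its more abundant relative, went from 174, 84.7 and 73.6 FPKM to 45.7, 16.8 and 30.4 FPKM, 3.59-fold lower. Fads2 was at 14.8, 4.85 and 6.97 FPKM with PI3Kdi, 3.03-fold lower, and Acsl6 at 1.40, 0.78 and 0.89 FPKM, 8.04-fold lower. All PI3Kdi libraries lay below all TCR libraries for each of these 4 genes, as for 18.6% of all rows. In Fads2 the highest PI3Kdi library and the lowest TCR library were less than 1 FPKM apart. The adjusted p were 0.003 for Scd1, 0.0056 for Scd2, 0.032 for Fads2 and 0.00016 for Acsl6 (limma). TCR replicate 1 held the highest level of each of the 4 genes in its group. Without it, the log2 fold change of Fads2 was -1.07 with an adjusted p of 0.07 (limma), and Fads2 also lost its call without PI3Kdi replicate 2 or 3, with no intensity trend (adjusted p = 0.055, limma) and with only the groups compared in the fit (adjusted p = 0.079, limma). The log2 fold change of Scd1 was -2.73 without PI3Kdi replicate 2, -4.01 without PI3Kdi replicate 1 and -2.25 with a pseudocount of 1. That of Acsl6 was -3.01, and -2.28 with a pseudocount of 1.

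Fads1, the neighbour of Fads2 in polyunsaturated fatty acid synthesis, was at 24.1, 17.2 and 15.9 FPKM and 18.9, 16.9 and 16.1 FPKM, groups that overlapped (adjusted p = 0.68, limma). Acsl3, Acsl4 and the elongase Elovl1 were lower at adjusted p of 0.03, 0.009 and 0.018 (limma) within the fold limit. Acsl5, which had the highest level of the 4 acyl-CoA synthetases listed, had a log2 fold change of -0.06 ± 0.08 (SE). Elovl6 was the other gene besides Acss2 with all PI3Kdi libraries above all TCR libraries, at 12.8, 12.7 and 12.7 FPKM and 16.7, 14.9 and 15.1 FPKM (adjusted p = 0.1, limma). The pair made up 13.3% of the 15 fatty acid genes, beside 18.1% of all rows with that order, so nothing is read from this count. Acss2 went from 3.42, 3.97 and 4.22 FPKM to 7.19, 8.42 and 8.19 FPKM, 2.03-fold higher (adjusted p = 0.00034, limma). Its log2 fold change of 1.02 dropped under the fold limit with a pseudocount of 1 (0.88) and without TCR replicate 1 (0.94), PI3Kdi replicate 2 (0.975) or PI3Kdi replicate 3 (0.995), with an adjusted p under 0.05 in each. With PI3Kdi replicate 2 or 3 left out, the number of fatty acid genes past both limits was 3 and the number past the adjusted p alone 5, against 5 and 8 with all libraries. Without TCR replicate 1 the number past both limits was also 3.

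**Figure D3:**
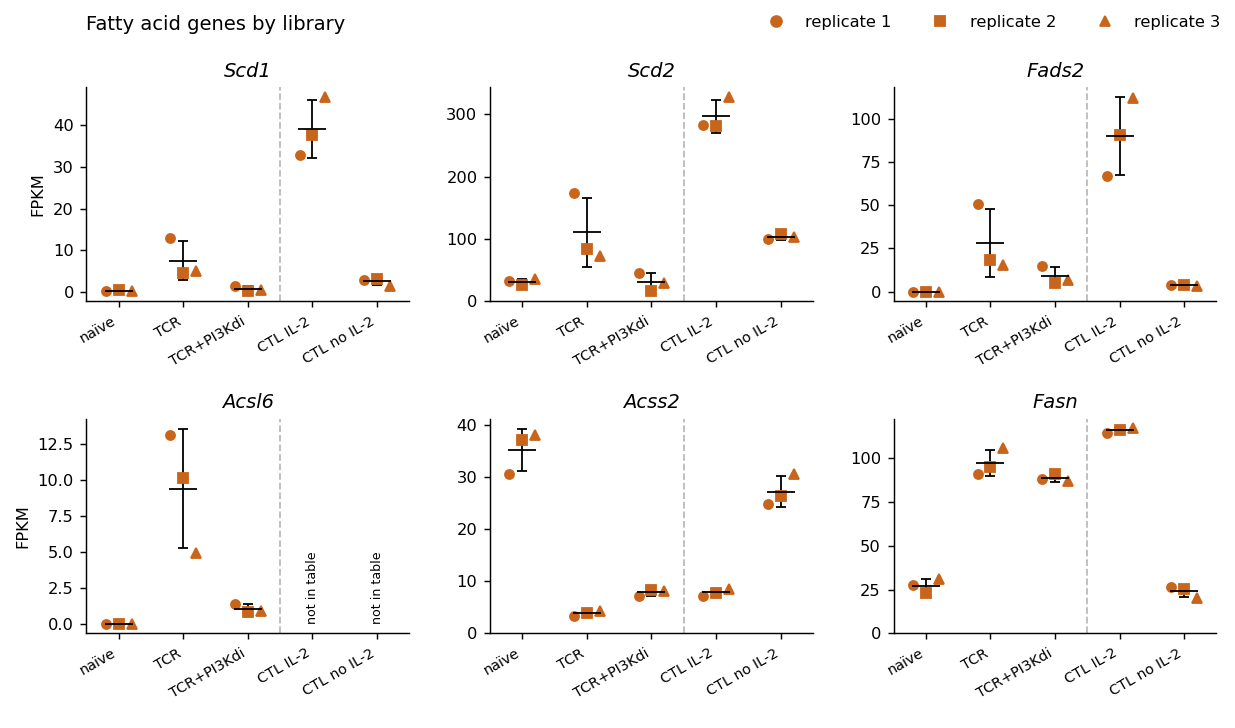
FPKM (vertical axes, from 0) of Scd1, Scd2, Fads2, Acsl6, Acss2 and Fasn in each library, with symbols for the replicate number and bars for the mean ± SD (n = 3). TCR replicate 1 is the highest of its group for the first 4 genes, Fasn overlaps between TCR and TCR with PI3Kdi, and Acss2 runs against the others in both tables.

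Against naïve cells, most genes of both branches were also higher in the cells activated with PI3Kdi. Of 19 sterol genes 13 rose and 0 fell, and of 15 fatty acid genes 9 rose and 1 fell, beside 23.6% of all rows higher and 21.3% lower. This comparison and the previous ones share the naïve and activated libraries, so the levels are given side by side. Idi1 was at 1.26 ± 0.28 FPKM in naïve cells, 22.9 ± 5.46 FPKM after activation and 16.4 ± 1.53 FPKM with PI3Kdi (SD, n = 3). Scd2 was at 31.5 ± 4.95, 111 ± 55.2 and 31.0 ± 14.5 FPKM in the same order. Scd1 was at 0.33 ± 0.19, 7.56 ± 4.67 and 0.73 ± 0.65 FPKM. For Scd2 and Scd1 the PI3Kdi libraries overlapped the naïve ones, with log2 fold changes of -0.13 ± 0.36 and 0.71 ± 0.59 (SE) and adjusted p of 0.75 and 0.29 (limma). Mvd, Dhcr7 and Nsdhl of the sterol branch likewise overlapped the naïve level. Acss2 stayed 4.39-fold below naïve cells. Several calls near the limit depended on 1 library: Sc4mol (log2 fold change 1.01) was at 0.98 without naïve replicate 1 and 0.91 without PI3Kdi replicate 1, Acsl4 was at 0.98 without PI3Kdi replicate 1, Tm7sf2 fell past the limit (-1.055) without PI3Kdi replicate 1, and Scd1 rose past it (1.37) without PI3Kdi replicate 2. A pseudocount of 1 also took Hsd17b7 (0.89), Acsl3 (0.94) and Sc4mol (0.96) under the fold limit.

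Most of the sterol branch was lower in CTL after withdrawal of IL-2. Of 19 sterol genes 14 fell and 0 rose after 24 h without IL-2, beside 13.9% of all rows that fell and 14.3% that rose. At an adjusted p under 0.05 with no fold limit 18 of 19 were lower, beside 36.6% of all rows, and the exception was Ebp. The median log2 fold change was -1.70 for the sterol genes and -0.001 for all rows. All libraries without IL-2 lay below all libraries in IL-2 for 18 of 19 sterol genes, beside 38.5% of all rows. Markers of other cell types also moved in these cultures. Of 8 myeloid symbols 3 were listed and 2 rose: their summed level went from between 5.57 and 9.67 FPKM to between 13.7 and 21.7 FPKM, with Itgax at 0.21, 0.39 and 0.33 FPKM and then 3.67, 5.17 and 4.81 FPKM, and Itgam at 0.29, 0.20 and 0.39 FPKM and then 3.92, 3.89 and 4.46 FPKM. The B cell marker Cd79b went from 6.30, 3.96 and 2.74 FPKM to 20.6, 15.7 and 10.8 FPKM and Cd4 from 0.25, 0.39 and 0.05 FPKM to 1.92, 1.36 and 0.92 FPKM, and both rose. The NK cell marker Klrb1c went from 1.88, 1.20 and 1.87 FPKM to 2.17, 2.65 and 3.41 FPKM, within the fold limit. The summed CD8 T cell markers went from between 971 and 1042 FPKM to between 1876 and 2069 FPKM. Their part in the results was not tested.

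The mevalonate steps fell throughout. Acat2, the thiolase that opens the pathway, was at 26.1, 23.6 and 25.2 FPKM in IL-2 and 7.08, 6.03 and 6.72 FPKM without it. Hmgcs1 went from 97.5, 97.2 and 126 FPKM to 21.9, 22.5 and 21.5 FPKM, 4.81-fold lower. Both genes were lower in every library without IL-2, with little spread among them. The kinases Mvk and Pmvk went from 16.0, 19.3 and 21.0 FPKM to 8.46, 8.80 and 9.21 FPKM and from 25.0, 30.5 and 33.4 FPKM to 11.1, 11.8 and 10.96 FPKM. Mvd, the decarboxylase, went from 28.8, 33.0 and 36.4 FPKM to 10.9, 9.59 and 9.46 FPKM. Mvk was the weakest of the 14 calls, 2.1-fold lower, and lay within the fold limit without CTL in IL-2 replicate 3 (-0.99).

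The isoprenoid and squalene steps held the steepest fall of the branch. Idi1 went from 15.9, 13.1 and 18.1 FPKM to 2.36, 2.46 and 1.92 FPKM, 6.71-fold lower. Fdps went from 152, 151 and 197 FPKM to 19.4, 20.7 and 15.5 FPKM, 8.94-fold lower, at a log2 fold change of -3.16 ± 0.13 (SE, adjusted p = 2.2e-07, limma). Of the 19 sterol genes Fdps changed most, and from the highest level. The squalene synthase Fdft1 went from 19.9, 21.6 and 28.4 FPKM to 10.7, 10.1 and 8.22 FPKM, and Sqle from 55.3, 60.3 and 71.7 FPKM to 16.9, 15.1 and 10.7 FPKM. Sqle was 4.41-fold and Fdft1 2.38-fold lower.

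From lanosterol onwards the changes were uneven. Lss went from 37.1, 35.4 and 40.8 FPKM to 11.4, 10.9 and 9.66 FPKM. Cyp51 went from 48.2, 47.8 and 59.8 FPKM to 10.3, 9.20 and 6.77 FPKM, 5.93-fold lower. Both enzymes stand at the head of this stretch. Sc4mol went from 43.3, 46.8 and 57.4 FPKM to 11.2, 11.3 and 7.65 FPKM, Nsdhl from 22.8, 25.7 and 26.5 FPKM to 9.79, 10.3 and 8.87 FPKM, and Hsd17b7 from 15.6, 14.2 and 17.8 FPKM to 2.19, 2.66 and 1.76 FPKM. These 3 enzymes act in demethylation of the sterol ring after the step of Cyp51, and Hsd17b7 was 6.98-fold lower. The last steps fell short of the fold limit: Ebp was at 39.4, 41.4 and 45.0 FPKM and 40.5, 36.5 and 34.2 FPKM, Sc5d had a log2 fold change of -0.69 ± 0.12 (SE), and Dhcr7 one of -0.94 ± 0.13. Dhcr7 passed the limit without CTL in IL-2 replicate 1 (-1.04) or CTL without IL-2 replicate 1 (-1.015). Stard4, which carries sterol between membranes, and Tm7sf2 were lower within the limit, at -0.73 and -0.72.

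Of the regulators, Insig1 fell from 31.9, 29.2 and 33.5 FPKM to 11.7, 11 and 9.04 FPKM, 2.97-fold (adjusted p = 2.2e-06, limma). It was the only 1 of the 4 that passed both limits, beside 13.9% of all rows that fell. Srebf1 went from 54.7, 62.0 and 58.4 FPKM to 35.3, 37.8 and 34.2 FPKM. Srebf2 went from 121, 138 and 141 FPKM to 106, 109 and 109.9 FPKM, and Scap from 32.9, 40.3 and 37.6 FPKM to 26.2, 25.9 and 26.5 FPKM. In all 4 genes every library without IL-2 lay below every library in IL-2, beside 38.5% of all rows. Srebf1, Srebf2 and Scap did not pass the fold limit, with log2 fold changes of -0.70, -0.29 and -0.49 and adjusted p of 3.9e-05, 0.0087 and 0.0009 (limma).

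**Figure D4:**
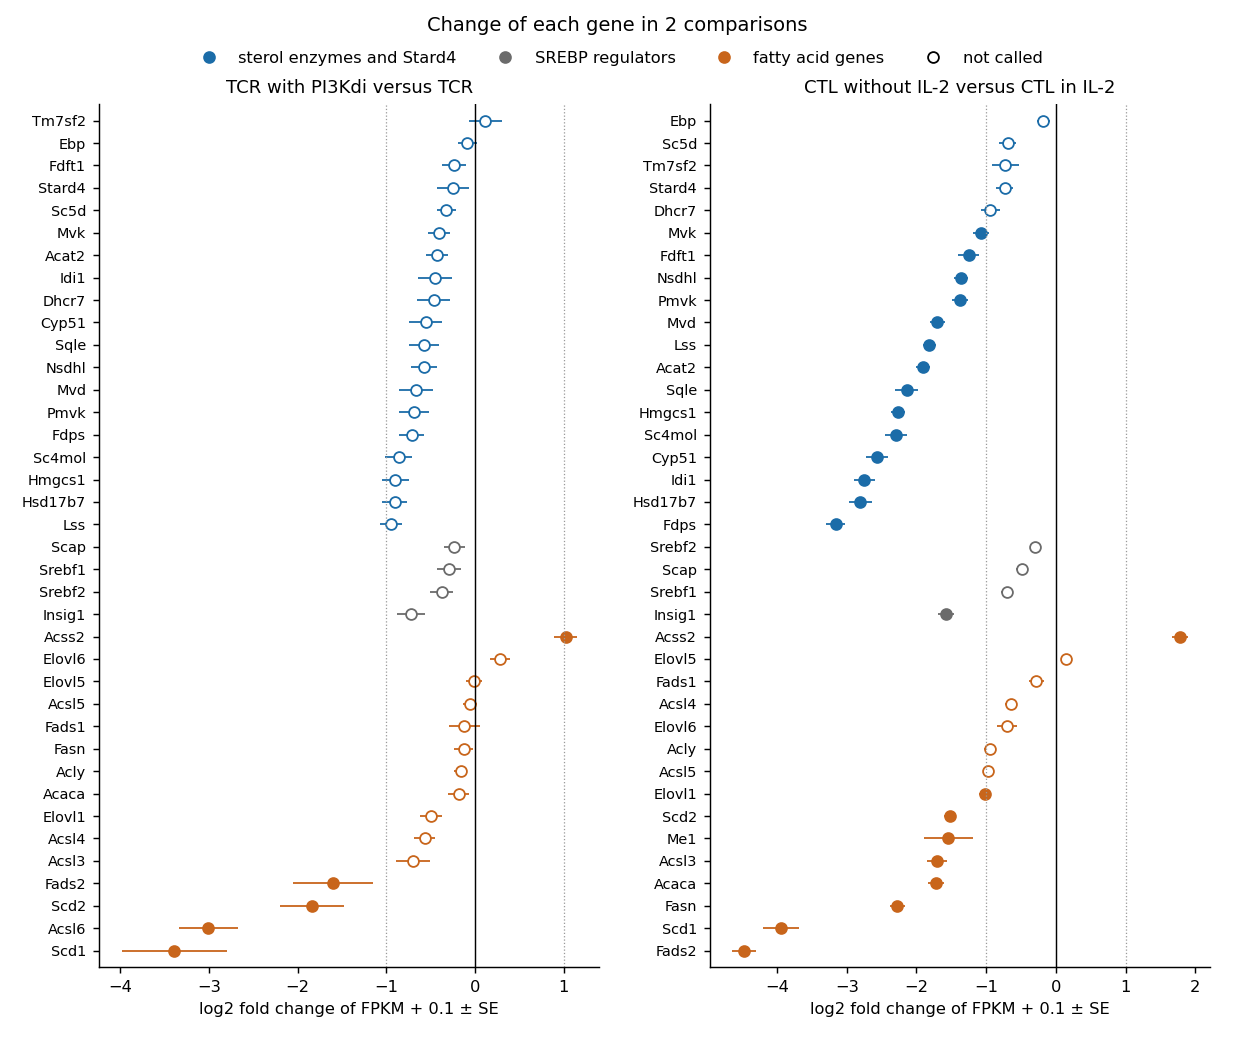
Log2 fold change ± SE (limma, horizontal axes) of each listed gene with PI3Kdi (left) and on withdrawal of IL-2 (right), sorted within each role. Filled points passed an adjusted p under 0.05 and a 2-fold limit (dotted lines); 0 of 19 sterol genes did so with PI3Kdi and 14 of 19 without IL-2.

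In the fatty acid branch of CTL 8 of 15 genes fell without IL-2 and 1, Acss2, rose, beside 13.9% of all rows that fell and 14.3% that rose. Genes of chain synthesis were among those that fell. Fasn went from 114, 116 and 117 FPKM to 26.4, 25.6 and 19.9 FPKM, 4.85-fold lower (adjusted p = 3.1e-07, limma). Acaca went from 18.3, 15.6 and 18.6 FPKM to 5.68, 5.34 and 4.72 FPKM, 3.29-fold lower. Acly, one step before them, was 1.93-fold lower and stayed within the fold limit. Me1, the malic enzyme that supplies NADPH, was near the lower end of the scale at 0.40, 0.36 and 0.39 FPKM and 0.14, 0.09 and 0.00 FPKM, and with a pseudocount of 1 its log2 fold change was -0.36, and with 0.01 it was -2.89.

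Fads2 and Scd1 had the largest changes of the set. Fads2 was at 66.8, 90.7 and 112 FPKM in IL-2 and 4.06, 4.12 and 3.45 FPKM without it, 22.2-fold lower (log2 fold change -4.47 ± 0.17, SE, adjusted p = 1.4e-07, limma). Scd1 was at 33.0, 37.8 and 46.8 FPKM and 3.00, 3.19 and 1.47 FPKM, 15.4-fold lower. Scd2, at 282, 281 and 328 FPKM in IL-2 the most abundant gene of the set, was at 99.8, 108 and 103 FPKM without IL-2, 2.86-fold lower. Fads1 again stood apart from Fads2, with 18.3, 20.3 and 23.1 FPKM and 15.9, 17.3 and 17.5 FPKM and a log2 fold change of -0.28 ± 0.10. Fads2 and Scd1 were at or below 4.12 FPKM in every library without IL-2, whereas Scd2 was at or above 99.8 FPKM.

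Among the acyl-CoA synthetases and elongases, Acsl3 went from 9.31, 8.78 and 11.2 FPKM to 3.26, 2.95 and 2.58 FPKM, 3.25-fold lower. Elovl1 went from 77.1, 88.2 and 90.7 FPKM to 41.7, 42.7 and 41.6 FPKM, 2.02-fold lower, and fell short of the limit without CTL in IL-2 replicate 2 (-0.99) or 3 (-0.97) and with median scaling (-0.97). Acsl5, Acsl4 and Elovl6 were lower within the limit, at log2 fold changes of -0.97, -0.64 and -0.70; Acsl5 passed it without CTL in IL-2 replicate 1 (-1.004) or CTL without IL-2 replicate 1 (-1.03). Elovl5 was at 60.7, 60.5 and 57.5 FPKM and 65.3, 64.5 and 67.6 FPKM (adjusted p = 0.09, limma). Acss2 went from 7.21, 7.81 and 8.57 FPKM to 24.8, 26.4 and 30.6 FPKM, 3.43-fold higher (adjusted p = 1e-06, limma). Within each table Acss2 was thus highest where Fasn was lowest, in naïve cells and in CTL without IL-2. Between TCR activated cells with and without PI3Kdi the groups of Fasn overlapped.

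Other genes of sterol and fatty acid handling, from wider lists, were read beside the set. With TCR activation 6 of 27 other sterol genes rose and 6 fell, and 12 of 26 other fatty acid genes rose and 2 fell, beside 25.0% of all rows that rose and 23.7% that fell. The sterol counts were near these shares. With PI3Kdi 0 of the 27 and 0 of the 26 passed both limits in limma. At an unadjusted p under 0.05 with no fold limit 1 other sterol gene was higher and 5 were lower, and 3 other fatty acid genes were higher and 6 were lower, beside 16.1% of all rows higher and 15.4% lower, and nothing is read from these counts. On withdrawal of IL-2, 3 of 27 other sterol genes fell and 5 rose, near the 13.9% of all rows that fell and the 14.3% that rose, so the genes are named one by one and not as a group. Those that fell were Tmem97, a sterol-responsive membrane protein, from 60.1, 66.0 and 74.5 FPKM to 14.1, 13.7 and 11.1 FPKM, Pdss1, a prenyl diphosphate synthase for ubiquinone, and Aacs, which activates acetoacetate. Those that rose were the cholesterol exporters Abca1 and Abcg1, Nr1h3 (LXRα), a regulator of both, Mylip, a ubiquitin ligase that is an LXR target, and Npc2, a lysosomal sterol carrier. Abcg1 went from 8.74, 7.93 and 5.19 FPKM to 15.6, 16.2 and 16.8 FPKM, and Mylip from 4.16, 3.52 and 3.66 FPKM to 12.3, 14.2 and 15.4 FPKM. Npc2 went from 94.7, 83.3 and 74.5 FPKM to 258, 262 and 275 FPKM. Nr1h3 and Abca1 were low, at 0.27, 0.14 and 0.08 FPKM and then 0.64, 0.78 and 1.05 FPKM for Nr1h3 and 1.32, 0.66 and 0.37 FPKM and then 2.18, 2.73 and 2.05 FPKM for Abca1. The more abundant Nr1h2 (LXRβ) was not called, at 37.0, 52.1 and 43.7 FPKM and then 38.5, 45.3 and 45.2 FPKM.

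Of 25 other fatty acid genes 8 fell without IL-2 and 2 rose, beside the same 13.9% and 14.3% of all rows. Hsd17b12, the ketoacyl reductase of chain elongation, went from 72.2, 61.3 and 73.6 FPKM to 15.5, 14.6 and 14.6 FPKM, 4.59-fold lower. Slc25a1, which exports citrate from mitochondria, went from 39.3, 43.0 and 44.7 FPKM to 18.0, 18.4 and 15.2 FPKM. Mid1ip1, an activator of acetyl-CoA carboxylase, went from 27.8, 32.1 and 35.1 FPKM to 12.6, 13.8 and 10.4 FPKM. These 3 genes serve the supply, priming and lengthening of fatty acid chains. Acsl1, Mecr, Ptpla, Dgat2 and Fads3 also fell, the last 2 from levels under 3 FPKM. Acacb and Elovl7 rose and stayed at or below 1.03 FPKM in every CTL library.

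The comparisons with PI3Kdi and on withdrawal of IL-2 share no library and can be set side by side for the 37 genes of both tables. Both log2 fold changes were negative for 33 of the 37 genes and both were positive for Acss2, and 34.4% of the 10637 rows of both tables were lower in both. The exceptions were Tm7sf2 and Elovl6, which were positive with PI3Kdi, and Elovl5, which was positive without IL-2. The Pearson r across the 37 genes was 0.73 and across all shared rows 0.39, and genes are not independent replicates. Fasn was at -0.13 with PI3Kdi and -2.28 without IL-2, whereas Scd2 was at -1.84 and -1.52. The experiments differ in cell state, duration of culture and normalisation, and the difference between the 2 effects was not tested.

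**Figure D5:**
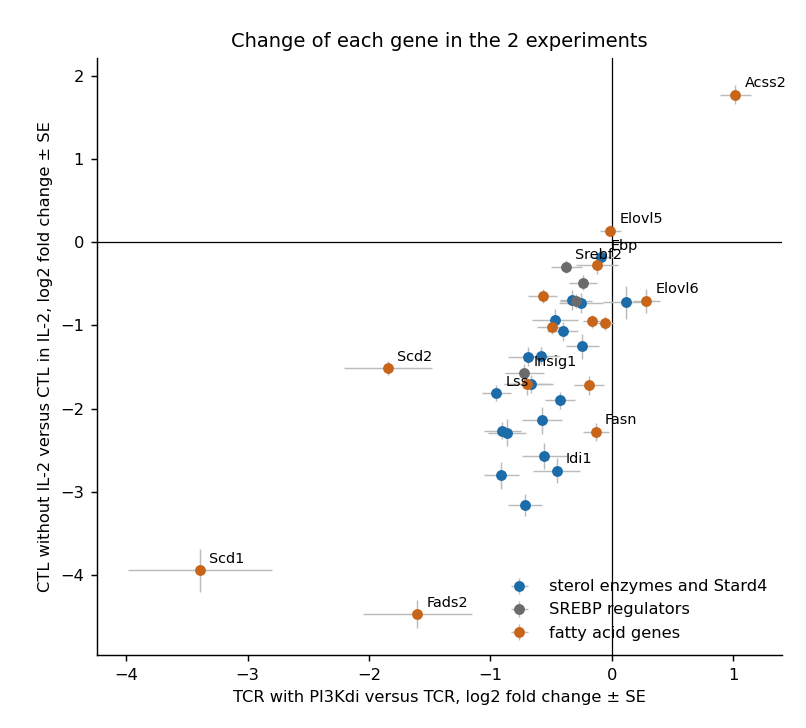
Log2 fold change ± SE with PI3Kdi (horizontal) and on withdrawal of IL-2 (vertical) for the 37 genes of both tables, coloured by role. 33 genes lie below 0 on both axes, Acss2 alone lies above 0 on both, and the sterol genes lie within 1 log2 unit of 0 on the horizontal axis and down to -3.16 on the vertical axis.

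Within groups the genes of the set also varied together. Of the 38 genes of the first table, 28 had their highest TCR level in replicate 1 and 30 had their highest PI3Kdi level in replicate 1, where 38.8% and 32.9% of all rows did. In CTL in IL-2, 30 of 38 genes were highest in replicate 3, beside 34.8% of all rows. In CTL without IL-2, 27 of 38 were lowest in replicate 3, beside 39.7%. Replicate 1 thus stood high in both activated groups, and the replicate number entered as a block changed no call in the set.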

How the data were processed

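Total RNA was converted to stranded poly(A)-selected libraries and sequenced. FPKM values were deposited by the authors in 2 tables, which their methods and the submitters' processing notes trace to alignment with STAR 2.5.2b to mm10, counting per gene with Subread 1.5.1, removal of low count genes, TMM normalisation and division by exon length. The CTL table is not described in the methods, and the same steps were assumed for it. Library totals are not given in the sources used here, so no counting error could be computed. Blank cells (1039) in the naïve and activated table were read as 0. Where other genes share sequence or overlap, the way reads were assigned is not known.

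Genes were tested with limma 3.58.1 in R 4.3.3 on log2(FPKM + 0.1) over all rows of a table, with an intensity trend and no pairing term. The 9 naïve and activated libraries were fitted together, and so were the 6 from CTL. The Benjamini-Hochberg method was applied over all rows, and calls needed an adjusted p under 0.05 and a fold over 2 or under 0.5. The fits were tested on simulated data. The alternatives were a pseudocount of 1 or 0.01, a mean of at least 1 FPKM, median scaling, a block for the replicate number, a prior without intensity trend, fold limits of 1.5 or none, only the groups compared, and each library left out. Counts at any fold were added after seeing the data. The genes, lists and motifs were chosen with earlier results of these data known. Every listed gene is described, with levels in every library for those called with PI3Kdi or on withdrawal of IL-2 and for the regulators, and of the wider lists those called in these comparisons. Further examples were chosen after their values were seen.

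Each pool of cells was divided between the naïve, TCR and PI3Kdi conditions, so equal replicate numbers were checked as pairs. Deviations from the group means correlated across rows at 0.27, 0.20 and 0.51 between TCR and PI3Kdi libraries of the same number, at 0.12, 0.17 and 0.26 between the CTL groups, and at -0.14, 0.23 and -0.18 between naïve and TCR libraries. CTL replicates were grouped by their titles, because the treatment labels of 2 of the libraries in IL-2 name other cytokines. A cell type marker is not reported here.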

Additional observations from a re-analysis of the deposited data

How the results depend on the processing

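The direction and the side of the threshold stayed in 1892 of 1937 alternative values of single genes, with 25 weaker, 10 stronger and 10 reversed, and 128 of 144 alternative counts stayed within 1.5 times. With PI3Kdi against TCR activation, the sterol genes past the limits numbered 0 as reported, 7 with a fold limit of 1.5 and 11 with none, and the fatty acid genes 5 as reported and 8 with no fold limit. The share of all rows at a fold limit of 1.5 was not computed. On withdrawal of IL-2 the fatty acid genes numbered 9 as reported and 14 with no fold limit. The count of 11 sterol genes at any fold became 7 without the intensity trend. With each library left out in turn, sterol and fatty acid genes numbered 14 to 15 and 13 to 13 for TCR activation, 0 to 2 and 3 to 5 for PI3Kdi, 5 to 12 and 5 to 8 for PI3Kdi at any fold, 12 to 13 and 9 to 11 for PI3Kdi against naïve cells, and 13 to 15 and 8 to 10 for CTL. Reversals touched log2 fold changes of genes that were not called. Over the libraries left out, they ranged with PI3Kdi against TCR activation from -0.158 to 0.029 for Ebp (TCR replicate 1), -0.063 to 0.060 for Elovl5 (TCR replicate 1, and 0.036 for PI3Kdi replicate 2), -0.239 to 0.059 for Fads1 (TCR replicate 1) and -0.041 to 0.284 for Tm7sf2 (PI3Kdi replicate 1), with the library whose absence reversed the sign in brackets. Against naïve cells they ranged from -0.466 to 0.255 for Scd2 (PI3Kdi replicate 2) and from -0.144 to 0.223 for Mvd (naïve replicate 2, and -0.003 and -0.013 for PI3Kdi replicates 1 and 3), and Dhcr7 was at 0.007 with median scaling. The cause was not tested. With the replicate block the paired counts stayed at 0, 5, 11 and 8 for PI3Kdi and at 14 and 9 for CTL, and the block changed no other call among 162 values. Genes near the detection limit, such as Me1 and Scd1, depend on the pseudocount, and without library totals the depth cannot be set against them.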
